A study of Homo sapiens with 4 samples.

Results

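Replication-dependent histone genes encode the histones that package newly copied DNA. They comprised every gene of the deposited count table whose symbol starts with H2AC, H2BC, H3C or H4C, together with H1-1 to H1-5, that had 20 or more counts summed over the 4 libraries. Of the 61541 genes in the table, 84 matched these names and 41 reached the minimum: 2 of 5 H1 genes, 10 of 24 H2A genes, 15 of 24 H2B genes, 6 of 15 H3 genes and 8 of 16 H4 genes. Of the 43 genes left out, 20 had 0 counts in every library. At the edge of the rule, H2BC13 had 22 counts in all, H2AC15 had 24 and H1-4 had 25, whereas H1-3 had 11, H4C9 had 10 and H3C4 had 9.8.

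The core histones H2A, H2B, H3 and H4 form the protein spool of the nucleosome, and H1 binds the DNA where it enters and leaves. Their genes sit in clusters, are transcribed mainly in S phase under the coactivator NPAT, and make mRNAs that end in a conserved stem-loop rather than a poly(A) tail. The stem-loop is bound by SLBP, which is needed for 3' end processing and translation, and these mRNAs are degraded quickly when DNA synthesis stops. Some of these genes can also make longer, polyadenylated transcripts by reading past the stem-loop.

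MHCC97H is an established human hepatocellular carcinoma cell line. In the labels, 2 libraries came from cells with the control shRNA (shCon) and 2 from cells with an shRNA against UBXN1 (shUBXN1). UBXN1 is a ubiquitin-binding cofactor of the ATPase VCP, and the study asked how its loss changes gene expression. The sources used here do not give the number of shRNA sequences behind these libraries, the time after knockdown, or whether replicates were separate cultures, so p-values may measure technical spread only. Cells of both groups were untreated as far as the labels say.

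UBXN1 was at 67.1 and 77.3 CPM (counts scaled to library size by the TMM method) in shCon and at 16.8 and 18.5 in shUBXN1, so the libraries matched their labels. Its log2 fold change was -2.03 with a standard error (SE) of 0.0963 and an adjusted p of 9.98e-10 (quasi-likelihood test of edgeR, Benjamini-Hochberg over all genes, as for all adjusted p-values below). The libraries held 23373700 to 27380508 counts, of which the 41 histone genes took 0.0357% to 0.0472%. Mitochondrial genes took 5.28% and 5.59% of counts in shCon and 7.43% and 8.27% in shUBXN1.

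Hepatocyte markers differed between the groups of this hepatoma line, and some of them were near the floor. Of 12 such markers 11 were tested, with 7 lower in shUBXN1 and 2 higher (SERPINA1 and KRT18), and the list summed to 4422 and 4591 CPM in shCon and 3472 and 4064 in shUBXN1. Most of that sum was KRT8, at 3354 and 3467 CPM in shCon, and KRT18, at 895 and 949. ALB (albumin) was at 18.0 and 17.2 CPM in shCon and APOA1 at 0.488 and 0.936, and APOA2 had 1 count in all. ALB was lower by -1.97 and FGB (fibrinogen beta chain) by -4.02 on the log2 scale. Of 8 markers of other cell types 5 were tested, with PECAM1 and COL1A1 higher and CD68 and DCN lower, and that list summed to 118 and 123 CPM in shCon and 120.2 and 116 in shUBXN1. Nearly all of this second sum was CD68, at 82.4 and 88.3 CPM in shCon, and PECAM1, at 33.4 and 33.2. CD3E was at 0 in every library. The part of these differences, and of the mitochondrial share, in the histone results was not tested.

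All 39 protein-coding members carried a histone stem-loop, and it is shown for the genes the results turn on. It marks where their mRNAs without a poly(A) tail end, and some of these genes are also annotated past it. The search asked, in this order, for GG, 3 bases of any kind, TT, any base, T, any base, A, 3 bases of any kind and CC, on the transcript strand within 100 bases of the stop codon. It was present in 91 of 19506 protein-coding genes (0.467%). Among the members it lay 22 to 67 bases after the stop codon, with a median of 36. The lines give GRCh38 positions in GENCODE v44, the strand and the transcript sequence, with the stem and loop in capitals.
H1-2, chr6:26055740-26055764, minus strand: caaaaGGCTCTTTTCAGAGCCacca
H2AC18, chr1:149842218-149842243, minus strand: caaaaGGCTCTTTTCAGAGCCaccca
H2AC19, chr1:149851569-149851594, plus strand: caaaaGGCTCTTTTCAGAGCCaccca
H2AC6, chr6:26124664-26124689, plus strand: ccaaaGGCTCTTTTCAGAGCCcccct
H2BC12, chr6:27146361-27146386, minus strand: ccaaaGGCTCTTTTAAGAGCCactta
H2BC5, chr6:26158582-26158607, plus strand: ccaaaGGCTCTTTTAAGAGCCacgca
H3C6, chr6:26225591-26225616, plus strand: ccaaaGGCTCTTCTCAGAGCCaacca
H4C14, chr1:149833027-149833052, plus strand: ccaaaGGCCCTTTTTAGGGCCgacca
H4C15, chr1:149860764-149860789, minus strand: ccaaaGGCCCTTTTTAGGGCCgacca
H4C12, chr6:27831174-27831198, minus strand: caaaaGGCCCTTTTTAGGGCCccca
The H2AC18 and H2AC19 lines are the same 26 letters, as are those of H4C14 and H4C15.

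More histone genes were called higher than lower in shUBXN1, 11 against 1 of the 32 tested. Of the 22 members with 100 or more counts, 9 were higher in shUBXN1 at an adjusted p under 0.05 and 1, H2AC19, was lower. Of all 16863 genes tested, 28% were higher and 28.2% lower by the same rule. The 9 were H2AC18, H2AC6, H2BC5, H2BC6, H2BC15, H2BC18, the pseudogene H2BC20P (counted over the gene model of a long noncoding RNA), H3C6 and H4C12. The single fall belonged to a gene that shares its coding sequence with H2AC18, and no member was lower once such copies were summed (edgeR, with none at an unadjusted p under 0.05). In that fit 28.2% of all features were lower at an adjusted p under 0.05. DESeq2 was run on the unsummed counts alone, where it called 1 member lower, H2AC19.

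All 22 of these members passed the filter on low counts, and 10 of the other 19 did, of which H2BC9 and H3C13 were higher. H2BC9 had 4 and 3 counts in shCon against 12 and 12 in shUBXN1, too few to say more. At a fold change of 2 or more with an unadjusted p under 0.05, 6 of the 32 tested members were higher and 1 was lower, against 11.8% and 6.09% of all tested genes. The median log2 fold change of the 32 was 0.27, beside 0.02 over all genes tested. In 15 of the 22 members with 100 or more counts the shCon and shUBXN1 libraries did not overlap, which was also so for 78% of all genes tested.

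The histone genes were rich in G and C. Their median GC content was 58.4%, against 48.8% over all tested genes. The 2008 tested genes within 2 percentage points of the members' median had a median of 0.09 on the log2 scale, beside 0.27 for the members. With each library's trend on GC content removed, 7 of 32 members were higher and 5 were lower, against 22.8% and 33.1% of all genes. This alternative was chosen after seeing the data. The 5 were H2AC19, H2BC4, H2BC12, H4C1 and H4C14. The members' median was then -0.0023, beside -0.076 over all genes tested. The part of base composition in the main values was not tested further.

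The count of higher members was also close to or under the share over all genes in other settings. DESeq2 called 6 of 32 higher and 1 lower, against 22.8% and 24.4% of all genes, and without shCon replicate 1 edgeR called 7 of 39 higher, against 22% of all genes. H2AC18, H2BC5, H2BC18, H3C6 and H4C12 were called higher at an adjusted p under 0.05 in each of 13 settings, which are the reported fit and all alternatives but the fit with copies summed, where H2AC18 is counted with H2AC19. By the rule of a fold change of 2, H2AC18 and H2BC5 were not called.

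**Figure D1:**
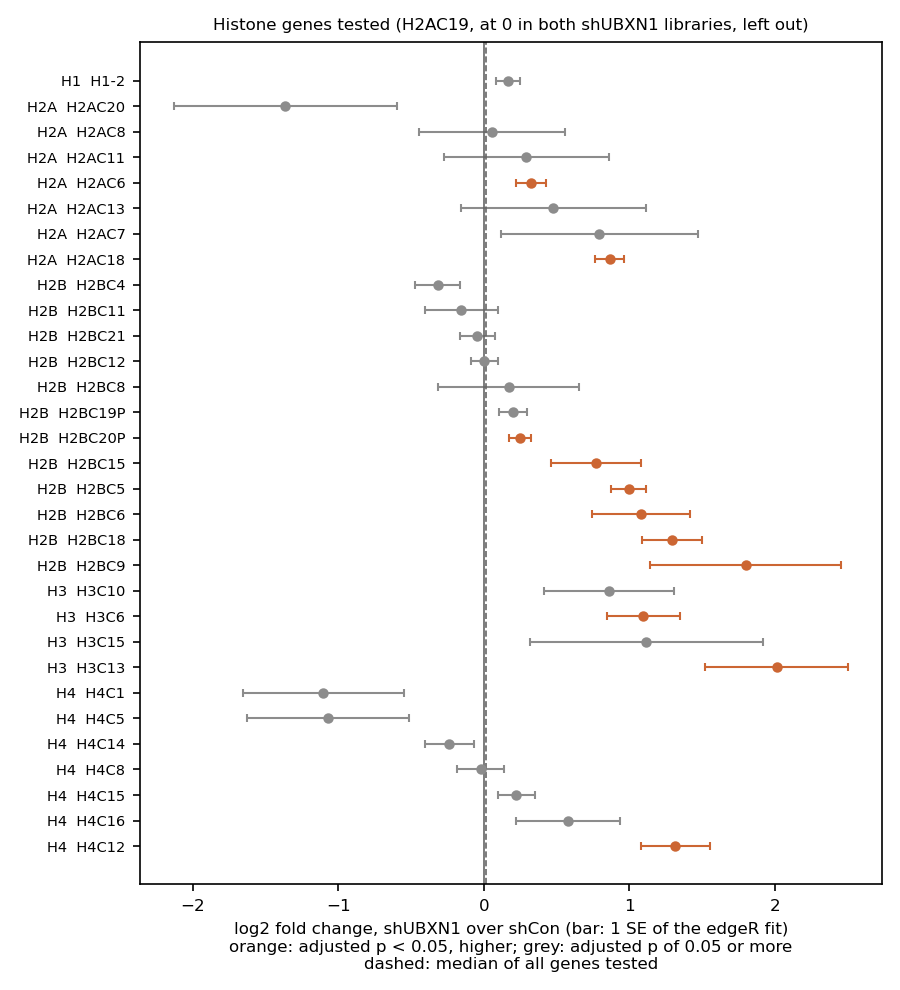
Log2 fold change (x axis, shUBXN1 over shCon) of 31 tested histone genes by class, with bars of 1 SE from the edgeR fit and orange for an adjusted p under 0.05. The orange points all lie to the right of 0, between 0.25 for H2BC20P and 2.01 for H3C13, and H2AC19, at 0 in both shUBXN1 libraries, is not drawn.

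Counts were concentrated in few genes. The 5 members with most counts held 63.95% of all member counts and the top 10 held 86.76%. Per base of transcript, as TPM (counts divided by the deposited gene length and scaled to library size), H2BC12 led in shCon with a mean of 337 TPM, followed by H2AC18 with 177, H4C15 with 141 and H1-2 with 114. In shUBXN1 the first 2 came close to each other, at 351 TPM for H2BC12 and 335 for H2AC18. All other members lay below 100 TPM in both groups.

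**Figure D2:**
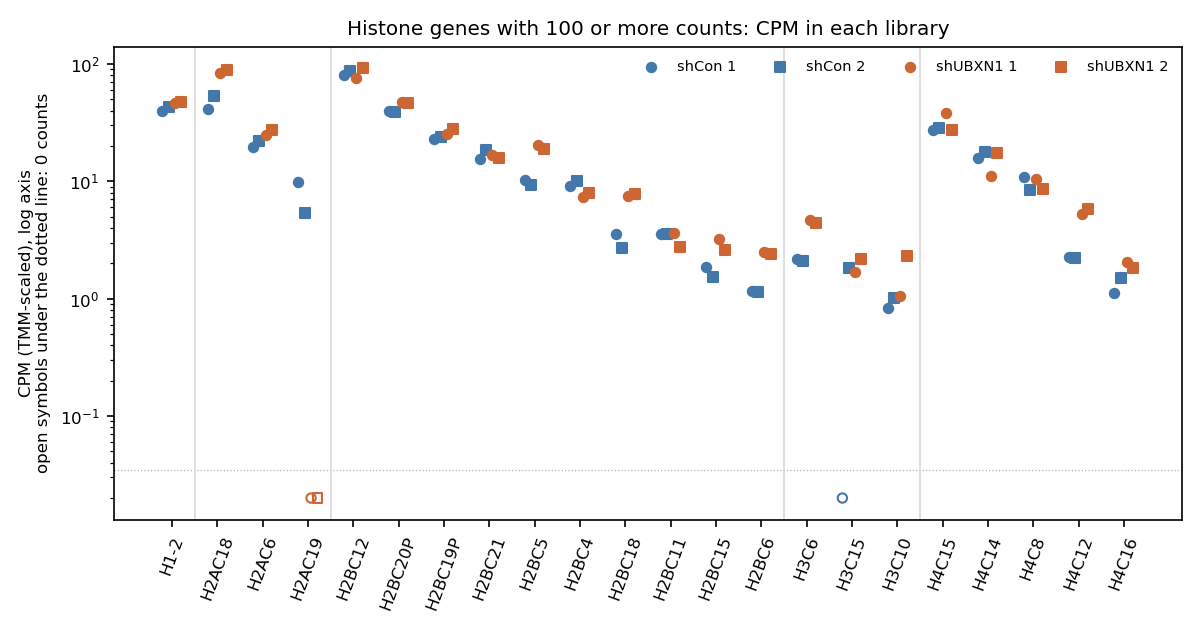
CPM on a log axis for the 22 histone genes with 100 or more counts, by class, with 1 symbol per library (blue shCon, orange shUBXN1, open symbols for 0 counts). Both shUBXN1 libraries lie above both shCon libraries for H2AC18, H2BC5, H2BC18, H3C6 and H4C12, and both lie at 0 for H2AC19.

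Among the H1 members, counts came almost wholly from H1-2, a somatic H1 subtype. H1-2 was at 39.7 and 43.1 CPM in shCon and at 46.0 and 46.9 in shUBXN1. The groups did not overlap, but the log2 fold change of 0.17 (SE 0.0813) missed the threshold, with an adjusted p of 0.096. With total count scaling it was 0.25, with an adjusted p of 0.0183. H1-4 had 25 counts in all and was not tested.

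Among the replication-dependent H2A genes, counts were dominated by H2AC18, 1 of a pair of inverted copies in the chromosome 1 cluster. H2AC18 (ENSG00000288825, chromosome 1, 149842218 to 149842750, minus strand) had 1102 and 1241 counts in shCon and 2060 and 2061 in shUBXN1. H2AC19 (ENSG00000288859, chromosome 1, 149851061 to 149851594, plus strand) had 264 and 127 counts in shCon and 0 in both shUBXN1 libraries. The coding sequences of the pair are identical over 390 bases, so a read from within them cannot be assigned to either copy.

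Summed, the pair had 1366 and 1368 counts in shCon and 2060 and 2061 in shUBXN1. This was 51.2 and 58.2 CPM against 83.2 and 88.0 CPM. The sum rose 1.57-fold, with a log2 fold change of 0.65 (SE 0.0820) and an adjusted p of 1.12e-05, in a fit with copies summed where 28.1% of 16861 features were higher. Alone, H2AC18 rose by 0.87 on the log2 scale (SE 0.0997, adjusted p = 4.68e-06), and H2AC19 was at least 61.4-fold lower against a floor of 3 counts per library. With the GC trend removed H2AC18 rose by 0.46 (SE 0.104, adjusted p = 0.00133), and the summed pair was not fitted in that way. H2AC19 took 19.3% and 9.26% of the pair's counts in shCon and 0% in shUBXN1. Whether the share of H2AC19 transcripts themselves changed was not tested, since the table holds only the counts after reads were divided.

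**Figure D3:**
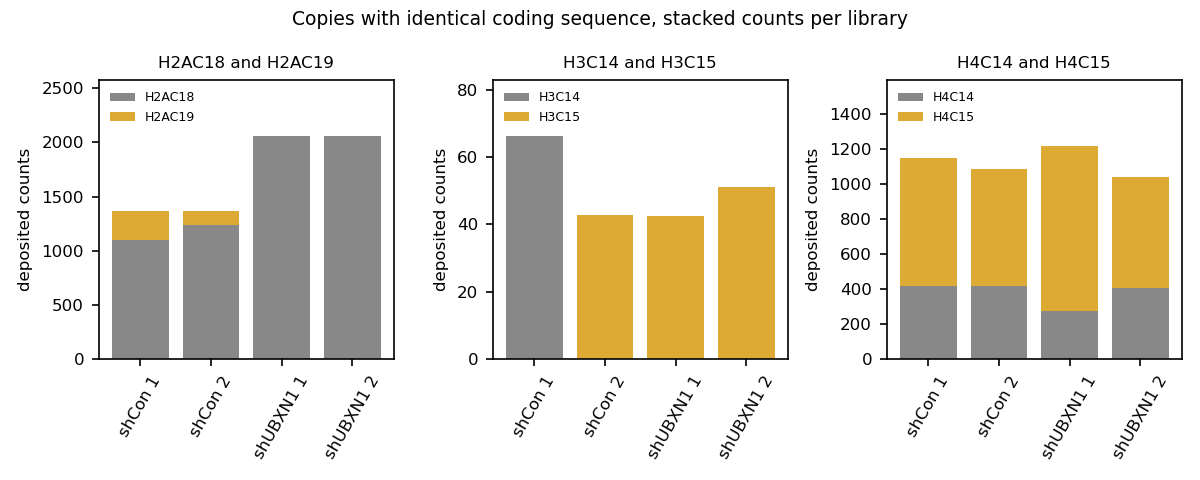
Deposited counts per library for the 3 pairs of histone genes with identical coding sequence, stacked by copy. The total of H2AC18 and H2AC19 steps up from 1366 and 1368 to 2060 and 2061, whereas the totals of H4C14 and H4C15 stay between 1040 and 1215 and the H3C14 and H3C15 counts pass from one copy to the other between the 2 shCon libraries.

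H2AC6, the other abundant H2A member, has no near-identical copy. Its level was 19.5 and 22.1 CPM in shCon and 24.8 and 27.4 in shUBXN1. The rise was 0.32 on the log2 scale (SE 0.105, adjusted p = 0.0166), which became 0.06 with an adjusted p of 0.671 after removing the GC trend. The call was also lost with DESeq2 (adjusted p = 0.0642) and without shCon replicate 1 (0.175) or shUBXN1 replicate 2 (0.0788). The other 7 H2A members had 24 to 58 counts in all, and none of the 5 tested was called by edgeR or DESeq2 or had an unadjusted p under 0.05. H2AC20 fell within this range, with 11.04 and 24.05 counts in shCon and 1 and 12.02 in shUBXN1 (log2 fold change -1.36, SE 0.768, adjusted p = 0.146), and it was called lower without shUBXN1 replicate 2.

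Among the H2B genes H2BC12, H2BC21 and H2BC11 were not called. H2BC12, the most abundant member, was at 79.8 and 86.5 CPM in shCon and at 75.2 and 91.4 in shUBXN1, so the shUBXN1 libraries enclosed the controls. Its log2 fold change was 0.003 with an SE of 0.0915. H2BC21 was at 15.4 and 18.3 CPM against 16.8 and 15.8, and H2BC11 at 3.53 and 3.58 against 3.64 and 2.73. The adjusted p was 0.77 for H2BC21 and 0.631 for H2BC11.

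H2BC5 (ENSG00000158373, chromosome 6, 26158122 to 26171349, plus strand) rose, but by just under the fold change of 2 that the second rule asks for. It was at 10.2 and 9.36 CPM in shCon and at 20.4 and 18.7 in shUBXN1, with a log2 fold change of 0.99, an SE of 0.121 and an adjusted p of 8.21e-06. H2BC18 (ENSG00000203814, chromosome 1) went from 3.53 and 2.68 CPM to 7.44 and 7.86, a rise of 1.29 on the log2 scale (SE 0.209, adjusted p = 0.00011). H2BC6 went from 1.16 and 1.15 CPM to 2.51 and 2.39, a rise of 1.08 (SE 0.336, adjusted p = 0.0136).

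The rise of H2BC15 was less firm. It went from 1.88 and 1.53 CPM to 3.23 and 2.61, with a log2 fold change of 0.77 (SE 0.311) and an adjusted p of 0.0466, and its adjusted p was 0.13 with DESeq2 and 0.0713, 0.209 and 0.194 without shCon replicate 1, shCon replicate 2 and shUBXN1 replicate 1. For H2BC6 the adjusted p was 0.0521 with DESeq2 and 0.0582 and 0.0571 without shCon replicate 1 and 2. H2BC4 lay at 9.04 and 10.003 CPM in shCon and 7.31 and 7.94 in shUBXN1, without overlap, and its log2 fold change of -0.32 (SE 0.153) had an adjusted p of 0.0898. With the GC trend removed the value was -0.52 and the adjusted p 0.00888. H2BC18 matches a stretch of the H3-7 locus at 98% identity or more, so its reads may be shared with that locus.

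Both H2B pseudogenes took many counts, but over more than the pseudogene. The deposited length of H2BC20P was 6440 bases and that of H2BC19P 3612, against 580 and 493 bases in GENCODE v44. These lengths equal those of the long noncoding RNAs that overlap them, on chromosome 1 at 149844498 to 149850937 (minus strand) and 149842875 to 149846486 (plus strand), so the gene models counted under these names are those of the long RNAs, and which transcripts gave the reads was not tested. H2BC20P went from 39.6 and 39.1 CPM to 47.1 and 46.4 (log2 fold change 0.25, SE 0.0786, adjusted p = 0.0147), and with the GC trend removed it was at -0.06 with an adjusted p of 0.598, while without shCon replicate 1 or 2 its adjusted p was 0.0783 or 0.19. H2BC19P went from 22.7 and 23.8 CPM to 25.5 and 27.9 (adjusted p = 0.0964, and 0.0388 without shUBXN1 replicate 1). The 2 long RNAs overlap each other on opposite strands, and whether counting used strand is not given in the sources used here.

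Counts of the H3 members were few. Of the 2 without a near-identical copy that were tested, H3C6 was called higher. H3C6 (ENSG00000274750, chromosome 6, 26224199 to 26227473, plus strand) was at 2.18 and 2.09 CPM in shCon and at 4.69 and 4.44 in shUBXN1, a log2 fold change of 1.10 (SE 0.249, adjusted p = 0.00178). H3C10 was at 0.825 and 1.02 CPM against 1.05 and 2.31, which missed the threshold with a log2 fold change of 0.86 (SE 0.448, adjusted p = 0.118) and passed it without shUBXN1 replicate 1 (adjusted p = 0.0173). The 13 H3 coding genes encode only 2 proteins, which differ by the substitution C96S between H3C10 and H3C13, counted after the initiator methionine.

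The chromosome 1 copies of H3 again showed counts moving between copies. H3C14 held 66.4 counts in shCon replicate 1 and 0 in the other libraries, while H3C15 held 0 in that library and 42.7, 42.5 and 51.2 in the others. The coding sequences are identical over 408 bases, and the summed pair had 66.4 and 42.7 counts in shCon and 42.5 and 51.2 in shUBXN1 (log2 fold change -0.16, SE 0.330, adjusted p = 0.711). Without shCon replicate 2, the only control library with H3C15 counts, H3C15 alone was called higher (adjusted p = 7.47e-09) and H3C14 lower. H3C13, which encodes the same protein, went from 8.40 and 8.12 counts to 35.8 and 27.3, a log2 fold change of 2.01 (SE 0.493, adjusted p = 0.00304). Its near-identical partner, H3-7, held 57.2 and 43.1 counts in shCon and 156 and 111 in shUBXN1, so both were higher.

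H4 genes encode nearly a single protein, and 14 of 15 coding H4 genes encode the same one. The identical copies H4C14 and H4C15, 14277 bases apart on chromosome 1, held most of the counts. H4C15 was at 27.3 and 28.5 CPM in shCon and 38.0 and 27.1 in shUBXN1, and H4C14 at 15.7 and 17.8 against 11.1 and 17.4. Summed, they were at 43.0 and 46.3 CPM against 49.1 and 44.4, with a log2 fold change of 0.07 (SE 0.0842, adjusted p = 0.521). The high H4C15 and low H4C14 values fell in the same library, shUBXN1 replicate 1, and their sum did not show it. Without shUBXN1 replicate 2, H4C15 was called higher (log2 fold change 0.43) and H4C14 lower (-0.61).

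H4C8 was at 10.8 and 8.47 CPM in shCon and 10.4 and 8.63 in shUBXN1, with a log2 fold change of -0.02 (SE 0.163). H4C12 (ENSG00000273542, chromosome 6, 27831174 to 27831560, minus strand) rose, from 2.25 and 2.21 CPM to 5.29 and 5.85 (log2 fold change 1.32, SE 0.234, adjusted p = 0.000259). Its near-identical copy H4C11 held 6.49 and 0 counts in shCon and 22.1 and 0 in shUBXN1, beside 59.6 and 52.0 counts against 131 and 137 for H4C12. H4C16, the only member on chromosome 12, was at 1.13 and 1.49 CPM against 2.06 and 1.84 (log2 fold change 0.58, SE 0.355, adjusted p = 0.182). H4C1 and H4C5 had 49 and 51 counts in all, with log2 fold changes of -1.10 and -1.07 and adjusted p of 0.105 and 0.117.

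Sums over a class do not depend on how reads were divided among its genes. Summed over the 41 members, histone CPM was 367 and 391 in shCon and 447 and 464 in shUBXN1, a ratio of means of 1.20, and 1.21 without the 2 pseudogenes. The H2A sum was 73.6 and 83.4 CPM in shCon against 111 and 119 in shUBXN1, within which the pair H2AC18 and H2AC19 went from a mean of 54.7 to 85.6 CPM. The H3 sum was 6.08 and 5.49 CPM against 9.37 and 10.4. The H1, H2B and H4 sums had ratios of 1.12, 1.13 and 1.09, with the shUBXN1 libraries above the controls in each class. No test was made on these sums, and with 2 libraries a group an exact permutation test could not reach the threshold. The sums were not corrected for GC content, whose removal lowered the median of the members as given above. How much histone mRNA without a poly(A) tail the mRNA kits captured was not tested, so the sums are not totals of histone mRNA.

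**Figure D4:**
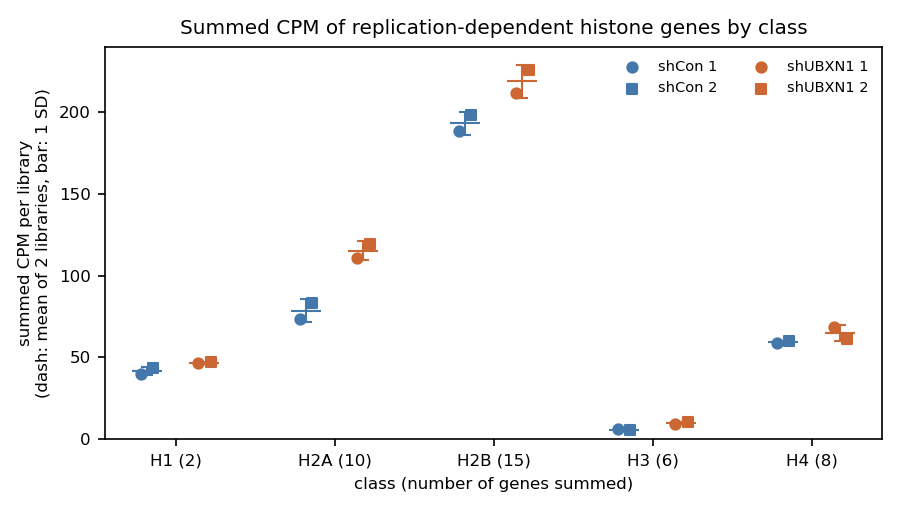
Summed CPM of the histone genes of each class in each library, with the mean (dash) and 1 SD (bar) of the 2 libraries of a group. H2A rises from 78.5 to 115 and H3 from 5.78 to 9.90 CPM on average, and H1, H2B and H4 change by ratios of 1.09 to 1.13.

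Many H2A and H2B genes lie in pairs that start from a shared promoter. In 10 pairs of divergent H2A and H2B genes both partners were members, and in 6 of these both were tested. H2BC4 and H2AC6 face away from each other on chromosome 6, with 218 bases between their GENCODE v44 starts. H2AC6 had a log2 fold change of 0.32 and H2BC4 of -0.32. The call of H2AC6 is lost in the settings given above, H2BC4 was not called, and the difference between the partners was not tested. Their shared promoter is shown as the 245 bases between the RefSeq starts, which differ from those of GENCODE, on GRCh38.p14 (chr6:26123927-26124171, plus strand). The motifs CCAAT, ATTTGCAT (the octamer) and TATAAA, searched on both strands, are in capitals.
H2BC4-H2AC6: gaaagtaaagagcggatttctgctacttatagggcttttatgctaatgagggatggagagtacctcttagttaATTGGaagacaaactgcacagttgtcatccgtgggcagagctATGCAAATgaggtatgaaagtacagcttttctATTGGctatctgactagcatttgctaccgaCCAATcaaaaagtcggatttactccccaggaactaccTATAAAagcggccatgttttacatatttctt
It holds CCAAT 3 times, the octamer once and TATAAA once. In the 250 bases before the start, CCAAT was present in 31 (81.58%) of the 38 members with an entry. The motif was in all H1, H2A, H2B and H3 genes among them and in none of 7 H4 genes. It was present in 37% of all 27305 genes with an entry. The octamer was present in 6 of 10 H2A and 10 of 13 H2B genes, in no other member, and in 2.03% of all genes. TATAAA was present in 27 members (71.05%) and in 13.05% of all genes.

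The libraries were made with mRNA kits, and poly(A) transcripts of histone genes are known for H2AC6, H2BC4, H2BC5, H2BC12, H2BC21 and H1-2. Over these 6 genes the median was 0.08 on the log2 scale, with 2 called higher (H2AC6 and H2BC5) and none lower by edgeR or DESeq2 or at an unadjusted p under 0.05. The other 26 tested members had a median of 0.38, with 9 higher and 1 lower. In GENCODE v44, 14 members are annotated more than 50 bases past the stem-loop, and they held 33.05% of member counts. Of these, 6 were higher and none lower by edgeR or DESeq2 or at an unadjusted p under 0.05, with a median of 0.45, and of the 16 tested members whose annotation ends at the stem-loop 4 were higher and 1 lower, with a median of 0.23. Over all genes tested, edgeR called 28% higher and 28.2% lower, and the differences between these subsets of members were not tested. Counts per gene do not say whether reads came from stem-loop or polyadenylated transcripts.

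Genes of DNA replication, active in the same phase of the cell cycle, were lower. All 24 S phase genes listed were called lower in shUBXN1, where 28.2% of all genes were, and their median was -0.81 on the log2 scale. With the GC trend removed all 24 were called lower, and 23 were with total count scaling, with DESeq2, and without shCon replicate 1, shCon replicate 2 or shUBXN1 replicate 1. UHRF1, which carries DNA methylation through replication, went from 175 and 187 CPM to 63.6 and 72.8 (log2 fold change -1.41), and CDC45, a helicase subunit, from 39.8 and 39.8 to 12.1 and 15.04 (-1.56). In bulk libraries, fewer cells in S phase and less mRNA per cell cannot be told apart.

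Replication-independent histone genes, as listed here, encode histone variants. The list holds H2AX, which can also make stem-loop mRNA, and CENPA, whose expression peaks in G2. Of 11 tested, 6 were lower and 1 was higher, with a median of -0.30, where 28.2% and 28% of all genes were. H2AX, the variant phosphorylated at DNA breaks, fell from 153 and 164 CPM to 72.2 and 91.7 (log2 fold change -0.96, SE 0.0977, adjusted p = 1.45e-06). H1-10 fell by 0.59 on the log2 scale and H2AJ by 0.44.

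The H3 variant genes H3-3A and H3-3B, which encode the same protein, did not fall. H3-3B was higher, at 475 and 474 CPM in shCon and 545 and 581 in shUBXN1 (log2 fold change 0.25, SE 0.0774, adjusted p = 0.014), a call lost without shCon replicate 1 (0.113) or 2 (0.298). H3-3A was at 183 and 181 CPM against 187 and 191 (log2 fold change 0.05, adjusted p = 0.551).

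Of 12 tested genes that act on histone transcription, 2 were higher and 3 lower, with a median of -0.08, at or under the 28% and 28.2% of all genes. NPAT was at 34.9 and 32.5 CPM in shCon and 34.6 and 29.9 in shUBXN1 (log2 fold change -0.06, SE 0.0951, adjusted p = 0.606), and CASP8AP2, its partner at histone loci, at 26.4 and 25.8 against 23.5 and 21.3 (-0.22, adjusted p = 0.0694, and 0.022 without shUBXN1 replicate 1). CCNE1, the cyclin whose kinase phosphorylates NPAT, was higher by 0.51 (SE 0.112, adjusted p = 0.00135). CDK2, which encodes that kinase, was lower (log2 fold change -0.32, SE 0.0801, adjusted p = 0.00355). CCNE2, the other cyclin E gene, was not called (-0.13, adjusted p = 0.431). CDK2 and CCNE2 were named after their values were seen. E2F1, an activator of S phase genes, was lower by -1.04, and POU2F1, which binds the octamer, by -0.68.

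Genes that process and degrade histone mRNA were lower more often than higher. Of 30 tested, 17 were lower and 5 higher, with a median of -0.26, where 28.2% and 28% of all genes were. SLBP was at 83.2 and 85.3 CPM in shCon and 58.9 and 64.9 in shUBXN1 (log2 fold change -0.44, SE 0.0772, adjusted p = 0.000212). CPSF4, a cleavage and polyadenylation factor, fell from 72.3 and 74.0 CPM to 36.4 and 37.0 (-0.99), SNRPF, an Sm ring protein, fell by 0.91, and CSTF2, a cleavage stimulation factor, by 0.67. The 5 higher genes were LSM11, LSM1, TUT4, XRN1 and MIF4GD, of which LSM11 is part of the U7 particle that cleaves histone pre-mRNA and LSM1, TUT4 and XRN1 act in mRNA decay. Other decay genes went the other way. UPF1 (-0.48) and the exoribonuclease genes ERI1 (-0.37), ERI3 (-0.75) and DIS3L2 (-0.66) were called lower. TUT7 (-0.02) and LSM10 (-0.05), which is also part of the U7 particle, were not called. Apart from SLBP, CPSF4, SNRPF and CSTF2, the genes of this paragraph were named after their values were seen.

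Histone chaperones carry histones to and from DNA. Of 26 tested, 19 were lower and 3 higher, with a median of -0.49, where 28.2% and 28% of all genes were. RBBP4, a histone-binding subunit of several chromatin complexes, fell from 136 and 133 CPM to 46.4 and 49.0 (log2 fold change -1.49, SE 0.0749, adjusted p = 1.67e-09). NPM1 fell from 676 and 691 CPM to 313 and 342 (-1.06), and CHAF1A, the large subunit of the chromatin assembly factor that acts at replication forks, from 80.0 and 86.4 to 40.7 and 41.6 (-1.02). The list shares MCM2 with the S phase genes.

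**Figure D5:**
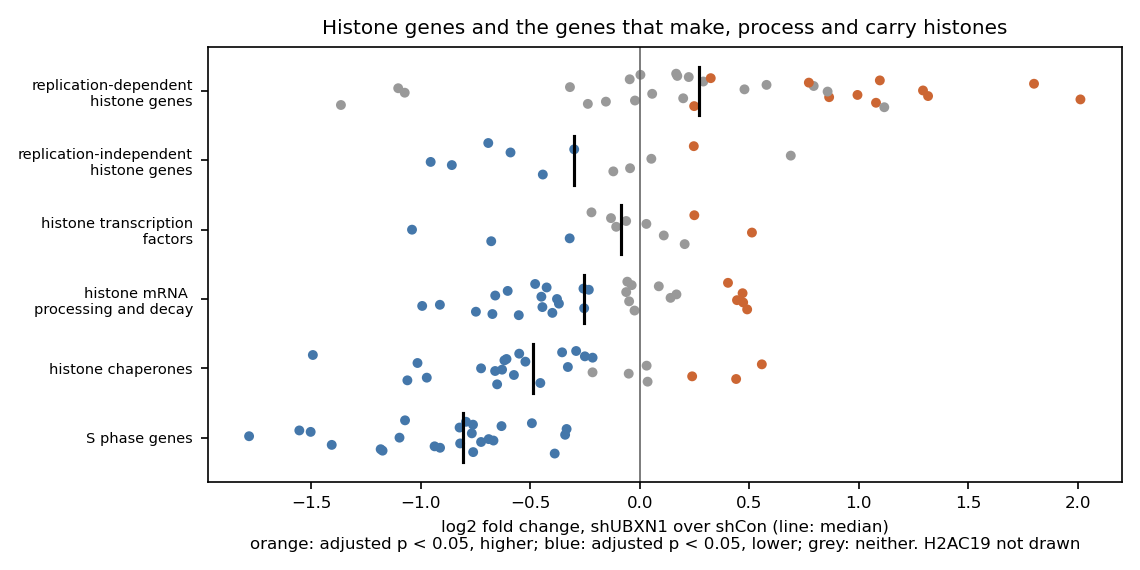
Log2 fold change (x axis, shUBXN1 over shCon) of each tested gene in the replication-dependent histone genes and in 5 companion lists, with black lines at the medians (H2AC19 counted in the median but not drawn). Medians step from 0.27 for the replication-dependent genes to -0.49 for chaperones and -0.81 for the 24 S phase genes, all of which lie left of 0.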

How the data were processed

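RNA-seq of MHCC97H cells (2 shCon and 2 shUBXN1 libraries, paired-end) was analysed from 1 gene table. The authors deposited expected counts per gene (not whole, not normalized, with a gene length). The paper names GRCh38, Hisat2 and a TruSeq kit, whereas the submitters' processing notes list GRCh37, HISAT2 2.0.4 and StringTie 1.3.0 and the labels a VAHTS mRNA-seq V2 kit. The control is shCon in the labels and shRFP in the methods. The counting tool, annotation and strand setting are not given in the sources used here.

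Of 61541 Ensembl IDs, 61369 (99.72%) matched a symbol. Counts were rounded and tested over all genes with edgeR 4.0.16 (R 4.3.3; filterByExpr, TMM, quasi-likelihood test, no block, Benjamini-Hochberg). Calls needed an adjusted p under 0.05. Alternatives were DESeq2 1.42.0, limma 3.58.1 on log2(CPM + 1) and log2(TPM + 1), other scaling and filters, left-out libraries, a replicate block, summed copies and a GC correction (loess, span 0.5). On simulated counts for this comparison (16863 genes), 100 of 100 genes changed 4-fold and 99 of 100 changed 2-fold were recovered, with 7 false calls. The changed genes had a mean over 2 CPM, and the same dispersion served every gene. Recovery at lower counts was therefore not tested, and 10 of the 32 tested members lay under 1 CPM. Positions, transcripts and stem-loops came from GENCODE v44 (GRCh38), of which 30 members had the deposited length. A near-identical copy was a match of 98% identity over 75 bases or more by blastn. A fold against 0 used a floor of 3 counts per library, which covers counting error only.

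Members and lists were chosen with earlier results of these data known. By rule, UBXN1, members with 100 or more counts, the 3 genes of smallest p in each companion list and SLBP, NPAT, CASP8AP2, H2AX, H2AJ, H3-3A and H3-3B were named, except that some genes this rule names are not reported here. Members under 100 counts were otherwise summarised, and those named individually were singled out after their values were seen.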

Additional observations from a re-analysis of the deposited data

How the results depend on the processing

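The main counts were 11 of 32 tested histone members higher and 1 lower, against 28% and 28.2% of all genes tested. Members called lower numbered 2 with no filter on low counts (H3C14 added), 2 with the replicate block (H2AC20 added), 4 with limma on log2(TPM + 1) (H2BC4, H4C1 and H4C5 added), 5 after removing the GC trend, and 0 with at least 10 counts in every library or with copies summed. In the first of these H2AC19 did not pass the filter, and in the second it was counted with H2AC18. Of all genes, 4879 were lower with no filter, 5023 with the replicate block and 3998 with limma on log2(TPM + 1). With at least 10 counts in every library 4446 were lower. The share lower was 33.1% with the GC trend removed and 28.2% with copies summed. Members called higher numbered 6 with DESeq2, 6 at a fold change of 2 with p under 0.05, and 7 after removing the GC trend. The shares higher over all genes were 22.8%, 11.8% and 22.8% in that order. With the GC trend removed, the log2 fold change of H2BC12 went to -0.25 and that of H2BC20P to -0.057, from 0.003 and 0.25. The summed histone CPM had a log2 ratio of 0.27 (main) and 0.35 with total count scaling.

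Leaving out each library in turn gave 7 to 11 members higher, with the fewest without shCon replicate 1, and 1 to 4 lower, with the most without shUBXN1 replicate 2, when the remaining sample of a group was assumed to vary like the other group. The lists ranged from 0 to 1 higher for replication-independent histone genes (0 without either shCon library), 1 to 2 for transcription factors (1 without shCon replicate 1), 3 to 6 for processing and decay (3 without shCon replicate 2) and 1 to 3 for chaperones (1 without shCon replicate 2). The fits without 1 library tested 36 to 39 members, and their counts over all genes also moved, so their counts are not comparable with the main counts. Total count scaling gave 2 replication-independent genes and 8 processing genes higher, and removing the GC trend gave 1 transcription factor higher. Over all genes, 5324 were higher with total count scaling and 22.8% with the GC trend removed. At a fold change of 2 with p under 0.05, the replication-independent and processing lists had 0 higher and 0 lower, transcription factors 0 higher and 1 lower, chaperones 0 higher and 3 lower, and S phase genes 8 lower. By this rule 11.8% of all genes tested were higher and 6.09% lower.

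Replicate numbers are shared between the groups, but nothing in the labels ties them to a batch or day, and the deviations of same-numbered libraries from their group means correlated at 0.039 across genes. The replicate block gave 12 members higher, namely the same 11 and H3C15, in a fit where 5000 of all genes were higher. UBXN1 was lower under every alternative, by 1.93 to 2.35 on the log2 scale. Over the single genes named by rule, 515 of 552 alternative values kept direction and call.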
